A study of Eublepharis macularius with 8 samples.

Results

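Semaphorins are secreted or membrane-bound guidance proteins that share an extracellular sema domain, plexins are their large transmembrane receptors, and neuropilins are co-receptors that hold most secreted class 3 semaphorins on plexins of type A. Bound plexins act on small GTPases and on the actin cytoskeleton, and the cell or growing axon that carries them turns away from, or in some settings towards, the source. In mouse teeth and bone the family is known for steering sensory axons into the tooth pulp, for patterning vessels, and for signals exchanged between bone-forming and bone-resorbing cells. The genes described here are the rows of a gene count table whose symbol has the form of SEMA class 3 to 7, PLXN type A to D, or NRP1 or NRP2. There were 29 such genes among 22488 rows, with 18 semaphorins, 9 plexins and 2 neuropilins. SEMA3D and SEMA7A were not analysed here.

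The animals were adult Eublepharis macularius, the leopard gecko, a lizard whose teeth are replaced for life, and RNA was taken from whole teeth. Functional teeth, those in use, gave 4 libraries, and developing teeth gave another 4. Female animals gave replicates 1 to 3 of each group, with 3 teeth in a sample, and male animals gave replicate 4, with 10 functional or 11 developing teeth. No treatment, strain or altered genotype is given in the labels, and whether the teeth of a library came from 1 animal is not stated, so the p-values reflect variation among these 8 libraries, which may in part be technical. A whole tooth holds odontoblasts, pulp, vessels, nerve, resorbing cells and, while it forms, enamel epithelium, so fewer cells of a type and less RNA per cell cannot be told apart in any value below.

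Libraries held between 14144573 and 30935120 estimated counts, of which the 29 genes took between 0.168% and 0.207%. Marker levels differed between the groups and among the developing libraries. The summed level of 6 odontoblast markers (DSPP, DMP1, COL1A1, COL1A2, PHEX and IBSP) was 404834, 428534, 403087 and 404551 CPM (a count scaled to a common library size, here after TMM, the trimmed mean of M-values) in functional replicates 1 to 4 and 191652, 180240.0, 43465 and 36531 CPM in developing replicates 1 to 4. The sum of 6 ameloblast markers (AMELX, AMBN, ENAM, AMTN, MMP20 and SP6) was 1239, 121, 139 and 55.2 CPM in functional and 5208, 9172, 21137 and 33411 CPM in developing replicates. The log2 fold change was positive in all 6 odontoblast markers, with none called, and negative in all 6 ameloblast markers, with SP6 called. All 7 tested cell cycle markers were negative, 5 of them called, and 9 of 10 endothelial markers were positive, with none called. No listed marker was at 0 in every library. Developing replicates 1 and 2 thus held more odontoblast and less ameloblast marker RNA than developing replicates 3 and 4. Most of the odontoblast sum was COL1A1 and COL1A2 (251712 and 136030 CPM in functional replicate 1). Between the groups DSPP and IBSP overlapped, and developing replicate 1 held the most DSPP of any library (6001 CPM).

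**Figure D1:**
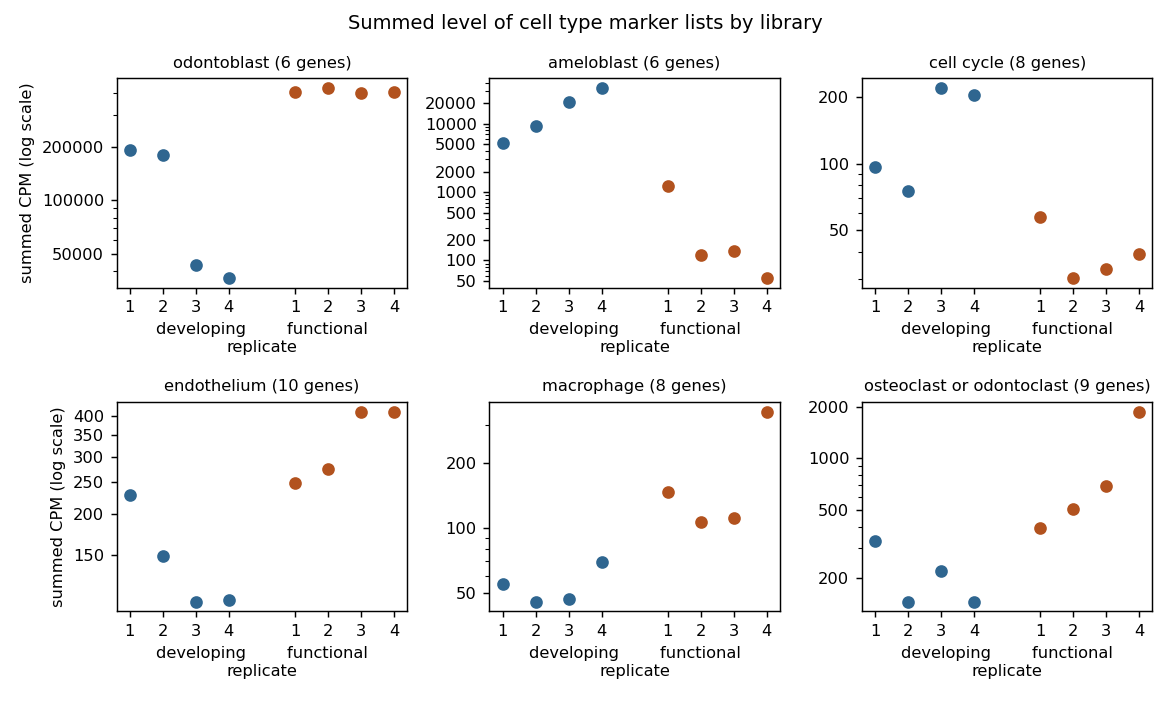
Each panel plots 1 list of cell type markers, with the library on the x axis (replicates 1 to 4 of developing teeth in blue, then of functional teeth in orange) and the summed CPM of the list on a log y axis. The odontoblast list is higher and the ameloblast list lower in every functional library than in any developing library, and developing replicates 3 and 4 stand farthest from the functional teeth in both.

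Functional teeth differed from developing teeth in members of the ligand family, in both directions. SEMA3E rose 2.63-fold in functional teeth, SEMA3F fell 2.45-fold and SEMA6A fell 2.16-fold (edgeR's quasi-likelihood test over 15491 genes, Benjamini-Hochberg adjusted p under 0.05). These were the 3 calls among 28 tested members, and the ninth plexin, PLXNA4, had too few counts to be tested. Of the members 1, or 3.57%, was called higher and 2, or 7.14%, were called lower, where 0.8% of all tested genes were called higher and 2.01% lower. An unadjusted p under 0.05 was reached by 8 members on the higher side (28.6%) and by 6 on the lower side (21.4%), beside 9.53% and 12.8% of all genes. In 6 members (21.4%) every functional library lay above every developing library, and in 4 (14.3%) every functional library lay below, beside 6.42% and 8.6% of all genes. No plexin or neuropilin passed in edgeR on all 8 libraries without a covariate. Without adjustment 3 of them were higher and 2 lower (p under 0.05), and DESeq2 called PLXNA3 higher and PLXNB3 lower. Over the whole family DESeq2 called 3 members higher and 4 lower, where it called 4.65% and 6.19% of all genes. The members divided almost evenly by sign, with 16 positive and 12 negative log2 fold changes (functional minus developing) and a median of 0.08, where the median of all genes was 0.0013. The median size of the log2 fold change, sign ignored, was 0.59 for the members and 0.29 for all genes.

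**Figure D2:**
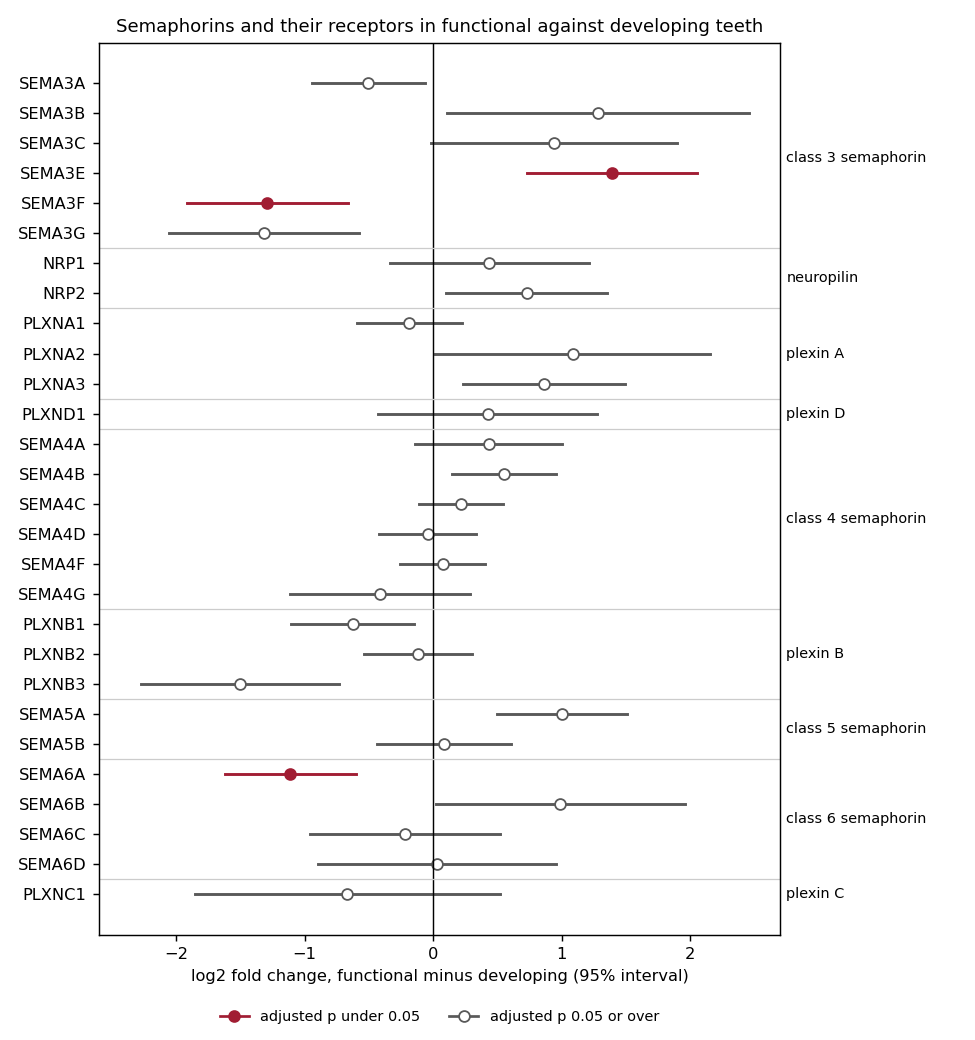
Each point is 1 tested gene, with its log2 fold change (functional minus developing) on the x axis and its 95% interval as a line; filled red points have an adjusted p under 0.05, and rows are ordered by ligand class beside matching receptors. SEMA3E lies to the right of 0, SEMA3F and SEMA6A lie to the left, and class 3 spans the range from -1.32 to 1.39.

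The 6 class 3 semaphorins, the secreted ligands, split into 3 with positive and 3 with negative log2 fold changes. SEMA3E is the class 3 ligand that binds plexin D1 directly, without a neuropilin, and in mouse it patterns blood vessels. It held 215, 242, 179.8 and 189.9 CPM in functional replicates 1 to 4 and 94.9, 116, 50.4 and 53.5 CPM in developing replicates 1 to 4. The lowest functional library lay well above the highest developing one, and developing replicates 3 and 4 were the lowest of the 8. Its log2 fold change was 1.39 ± 0.29 (SE), with an adjusted p of 0.0469 that became 0.0452 with the replicate number as a block. Among the 6 female libraries the log2 fold change was 1.29 ± 0.31, with an adjusted p of 0.150 (unadjusted 0.00455), and the male functional library exceeded the male developing library by 1.83. The call was lost when any library other than developing replicate 2 was left out, with adjusted p-values between 0.0587 (without developing replicate 1) and 0.128 (without functional replicate 2), and it held at 0.0297 without developing replicate 2.

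SEMA3F, which repels axons and endothelial cells mainly through neuropilin 2, moved the other way. Its levels were 3.39, 6.85, 5.48 and 8.39 CPM in functional replicates 1 to 4 and 15.7, 11.97, 17.3 and 14.2 CPM in developing replicates 1 to 4. All 4 functional libraries lay below all 4 developing libraries, and the male functional library was the highest of its group. Its log2 fold change was -1.29 ± 0.27, with an adjusted p of 0.0486 and of 0.0763 with the replicate block, under which the call was lost. Among female libraries it was -1.51 ± 0.29 (adjusted p = 0.115), and the male pair differed by -0.75. Without developing replicate 2 the adjusted p was 0.0497, and without each other library it lay between 0.0583 (functional replicate 1) and 0.144 (functional replicate 3). SEMA3G, a ligand of neuropilin 2 made by endothelial cells in mouse, had a log2 fold change of the same sign that did not pass in edgeR (-1.32 ± 0.32, adjusted p = 0.0686). It was called by DESeq2 (adjusted p = 0.00535) and by edgeR without developing replicate 2 (0.0354). It held 7.11, 4.83, 5.48 and 6.08 CPM in functional and 11.6, 8.01, 23.6 and 15.3 CPM in developing replicates 1 to 4, without overlap, and developing replicate 3 held the most. Endothelial markers summed to 249, 275, 409.7 and 412 CPM over 10 genes in functional and 229, 149, 108 and 109 CPM in developing replicates 1 to 4. PLVAP led that sum in functional teeth (185 ± 62.1 CPM), and EMCN was the 1 marker with a negative log2 fold change (-0.21). What vessel content contributes to SEMA3G was not tested.

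SEMA3B and SEMA3C had positive log2 fold changes that did not pass, with a wide spread over the developing libraries. SEMA3B, a ligand of both neuropilins, held 186, 251, 218 and 138 CPM in functional and 115, 144, 39.0 and 28.0 CPM in developing replicates 1 to 4. Developing replicate 2 exceeded the male functional library, so the groups overlapped (log2 fold change 1.28 ± 0.51, adjusted p = 0.192). SEMA3C, which guides neural crest cells of the cardiac outflow tract in mouse, held 155, 206, 131 and 144 CPM in functional and 124, 123, 48.9 and 34.7 CPM in developing replicates 1 to 4 (log2 fold change 0.94 ± 0.42, adjusted p = 0.231). All functional libraries lay above, but developing replicates 1 and 2 came within a few CPM of functional replicate 3 while developing replicates 3 and 4 were far lower. The developing libraries with little SEMA3B, SEMA3C and SEMA3E were those with the least odontoblast and the most ameloblast marker RNA, and the part of tissue makeup in these differences was not tested.

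SEMA3A, the classical repellent of sensory axons, which in mouse dental mesenchyme keeps nerve fibres out of the early tooth germ and in mouse bone restrains osteoclasts, had a smaller difference. It held 62.6, 63.1, 44.4 and 69.1 CPM in functional and 101, 93.2, 78.6 and 66.6 CPM in developing replicates 1 to 4. The male libraries were nearly level, functional replicate 3 was the lowest of the 8, and the groups overlapped through functional replicate 4. Its log2 fold change was -0.50 ± 0.19 over all libraries (adjusted p = 0.180), -0.68 ± 0.18 among female libraries (adjusted p = 0.164) and 0.05 in the male pair. SEMA3A and SEMA3E have no other protein-coding gene between them in the order of RefSeq genes on assembly MPM_Emac_v1.0, and their log2 fold changes had opposite signs. SEMA3B and SEMA3F, also of opposite sign, have 3 protein-coding genes between them, GNAT1, GNAI2 and SLC38A3.

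**Figure D3:**
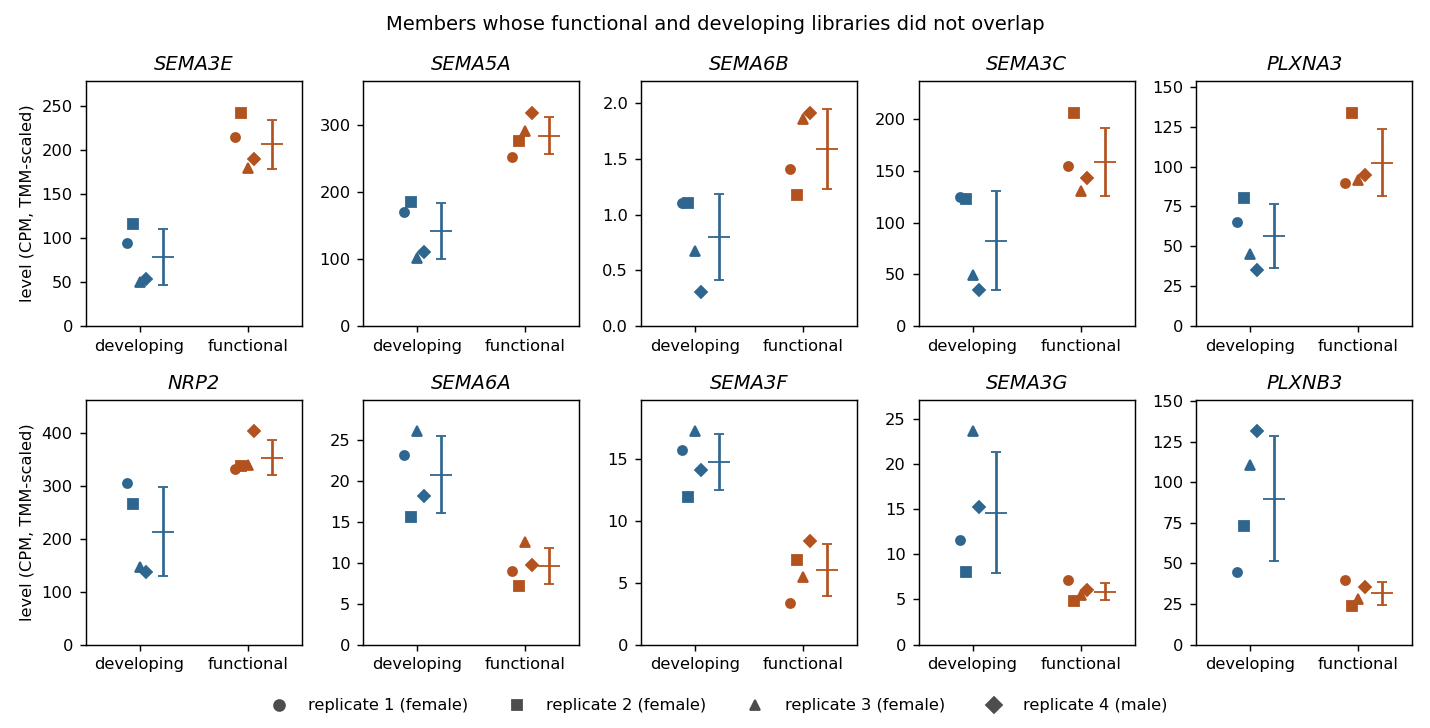
Each panel plots the CPM of 1 gene on a linear y axis for developing (blue) and functional (orange) libraries, with marker shape for replicate number and a bar for mean ± SD over 4 libraries; the 10 genes are those without overlap between groups. The top row and NRP2 are higher in functional teeth, the remaining 4 are lower, and in PLXNB3 developing replicate 1 lies close to functional replicate 1.

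The co-receptors had positive log2 fold changes that did not pass, and the counts of both include reads that kallisto shared with other features. NRP2, which prefers SEMA3F and also binds VEGF-C on lymphatic endothelium, held 332, 339, 341 and 404 CPM in functional and 306, 266, 146 and 137 CPM in developing replicates 1 to 4. Its groups did not overlap, 3 functional libraries were nearly equal, and the developing libraries spread more than 2-fold (log2 fold change 0.73 ± 0.27, adjusted p = 0.175). NRP1, the co-receptor of SEMA3A and of VEGF-A on endothelium, held 30.9, 30.3, 63.3 and 61.0 CPM in functional and 53.2, 27.6, 25.3 and 30.6 CPM in developing replicates 1 to 4. Functional replicates 3 and 4 were high and developing replicate 1 stood above functional replicates 1 and 2 (log2 fold change 0.44 ± 0.34, 95% interval -0.33 to 1.21, adjusted p = 0.477). Within a library the log2 ratio of NRP2 to NRP1 counts was 3.42, 3.48, 2.43 and 2.72 in functional and 2.52, 3.26, 2.53 and 2.16 in developing replicates 1 to 4. The mean difference was 0.40 and did not pass (exact two-sided permutation test, p = 0.229, or 0.229 adjusted over 3 ratios, where 4 against 4 libraries can give no p below 0.0286).

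Of the A-type plexins, which pair with neuropilins to receive class 3 signals and bind class 6 ligands directly, none passed in edgeR. PLXNA3, a receptor of SEMA3F with neuropilin 2, held 89.7, 134, 91.6 and 94.7 CPM in functional and 65.4, 80.0, 45.0 and 35.0 CPM in developing replicates 1 to 4. All functional libraries lay above, functional replicate 2 stood apart from the other 3, and developing replicates 3 and 4 were lowest (log2 fold change 0.86 ± 0.28, adjusted p = 0.128, and 0.0401 in DESeq2). PLXNA2, a receptor of SEMA6A in the mouse nervous system, held 4.85, 4.06, 9.40 and 9.30 CPM in functional and 5.82, 2.72, 3.06 and 1.38 CPM in developing replicates 1 to 4. Functional replicates 3 and 4 were about level and highest, and developing replicate 1 exceeded functional replicates 1 and 2 (log2 fold change 1.09 ± 0.47, adjusted p = 0.217). PLXNA1, the receptor through which SEMA6D signals with TREM2 in mouse osteoclasts, averaged 70.1 ± 12.8 CPM (SD, n = 4) in functional teeth against 79.7 ± 10.9 CPM in developing ones, with a 95% interval of the log2 fold change from -0.59 to 0.22 (adjusted p = 0.577). PLXNA4, a receptor of SEMA6A and SEMA6B and a partner in SEMA3A signaling, was scarce everywhere. It had 0, 0, 0 and 5 counts in functional and 12, 3, 20 and 34 counts in developing replicates 1 to 4. A count of 0 allows up to 3 counts, or 0.169, 0.122 and 0.155 CPM in functional replicates 1 to 3 (counting error only), so no fold is given.

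PLXND1, the endothelial receptor of SEMA3E, did not pass. It held 33.8, 41.3, 76.4 and 68.1 CPM in functional and 66.5, 24.4, 42.3 and 30.2 CPM in developing replicates 1 to 4 (log2 fold change 0.43 ± 0.37, 95% interval -0.42 to 1.28, adjusted p = 0.536). Functional replicates 3 and 4 and developing replicate 1 were high, the same 3 libraries that were highest for NRP1, and the groups overlapped. The endothelial marker sum was also highest in functional replicates 3 and 4, and developing replicate 1 was the highest of its group, and none of the 10 endothelial markers was at 0 in any library. What vessel content contributes to NRP1 and PLXND1 was not tested. The log2 ratio of SEMA3E to PLXND1 counts was 2.67, 2.55, 1.23 and 1.48 in functional and 0.51, 2.24, 0.25 and 0.82 in developing replicates 1 to 4. Developing replicate 2 lay among the functional values, and the mean difference of 1.02 did not pass (exact two-sided permutation test, p = 0.143, adjusted 0.214). Between libraries of the same number the difference was 2.15, 0.31, 0.98 and 0.66, positive in 4 of 4 pairs (exact sign-flip test with the replicate block, two-sided p = 0.125, the smallest that 4 pairs can give).

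**Figure D4:**
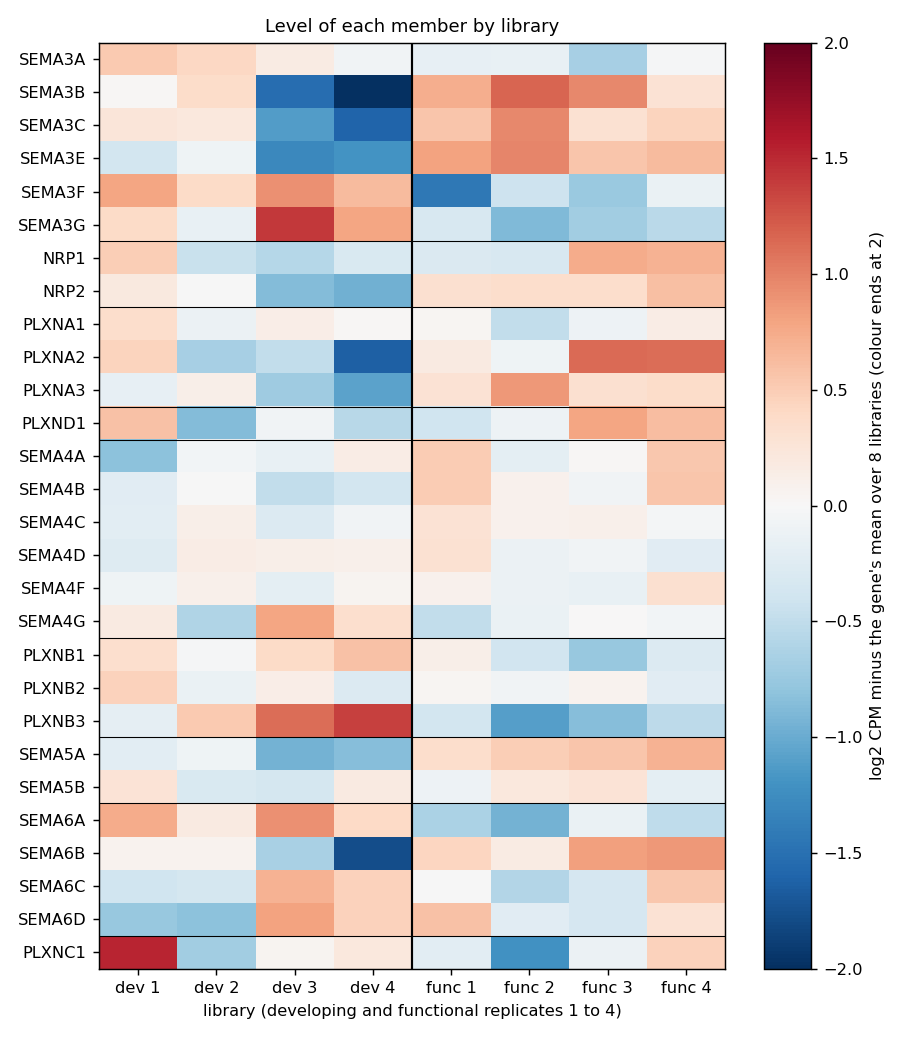
Rows are the 28 tested genes, ordered as ligand classes beside their receptors; columns are the 8 libraries; colour gives log2 CPM minus the gene's mean over the 8 libraries, red for above and blue for below, with the colour scale ending at 2. SEMA3B, SEMA3C, SEMA3E, NRP2 and SEMA5A are lowest in developing replicates 3 and 4, and PLXNB3 is highest there.

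The class 4 semaphorins are membrane-bound ligands of B-type plexins, some of which are shed, and none of the 6 passed in edgeR or DESeq2, with 1 higher at an unadjusted p under 0.05. SEMA4D, which mouse osteoclasts make and which restrains osteoblasts through plexin B1, held 112, 83.1, 86.5 and 77.7 CPM in functional and 75.6, 100.2, 97.9 and 96.6 CPM in developing replicates 1 to 4. The groups lay on top of each other, and the 95% interval of its log2 fold change ran from -0.42 to 0.34. SEMA4B was the member with the unadjusted p under 0.05, at 51.4, 38.5, 34.6 and 53.5 CPM in functional and 31.1, 36.2, 25.9 and 28.1 CPM in developing replicates 1 to 4. Developing replicate 2 exceeded functional replicate 3, and the log2 fold change was 0.55 ± 0.18 (adjusted p = 0.127). SEMA4A, known for costimulating T cells and for effects on vessel growth in mouse, averaged 68.0 ± 16.6 CPM in functional teeth against 50.4 ± 13.0 CPM in developing ones. SEMA4C, a ligand of plexin B2, averaged 116 ± 11.2 and 99.5 ± 12.4 CPM, SEMA4F 51.8 ± 7.87 and 49.2 ± 4.59 CPM, and SEMA4G 2.63 ± 0.380 and 3.52 ± 1.29 CPM in that order. For these 4 genes the 95% intervals of the log2 fold change all included 0, and the narrowest, of SEMA4C, ran from -0.11 to 0.55.

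The 3 B-type plexins had negative log2 fold changes, and none passed in edgeR on all 8 libraries without a covariate. PLXNB3, the receptor of SEMA5A, held 39.5, 23.8, 28.2 and 35.3 CPM in functional and 45.0, 72.9, 111 and 131 CPM in developing replicates 1 to 4. The groups did not overlap, though developing replicate 1 was within a few CPM of functional replicate 1 and developing replicates 3 and 4 held far more. Its log2 fold change was -1.51 ± 0.34, with an adjusted p of 0.0559, of 0.00109 in DESeq2, of 0.0420 with a sex covariate and of 0.0320 without developing replicate 1. The order of developing replicates 1 to 4 in PLXNB3 was that of the ameloblast marker sum, whose part was not tested. PLXNB1 held 55.6, 39.5, 30.2 and 42.6 CPM in functional and 64.7, 50.6, 66.9 and 76.9 CPM in developing replicates 1 to 4. Functional replicate 1 exceeded developing replicate 2, and the other 3 functional libraries lay below the developing ones (log2 fold change -0.63 ± 0.21, adjusted p = 0.139). PLXNB2 averaged 86.4 ± 8.06 CPM in functional teeth against 93.6 ± 21.6 CPM in developing ones, with a 95% interval of the log2 fold change from -0.54 to 0.30. The log2 ratio of SEMA4D to PLXNB1 counts was 1.01, 1.07, 1.51 and 0.87 in functional and 0.22, 0.98, 0.55 and 0.33 in developing replicates 1 to 4. Developing replicate 2 exceeded functional replicate 4, and the mean difference of 0.60 did not pass (exact two-sided permutation test, p = 0.0571, adjusted 0.171). Without developing replicate 2 it was 0.75 with an unadjusted p of 0.0286 in that test, the smallest that 4 against 3 libraries can give. No other developing library overlapped the functional values, so leaving this one out fixed that p in advance, and no conclusion is drawn from it. Between libraries of the same number the difference in this ratio was 0.79, 0.09, 0.97 and 0.54, also positive in 4 of 4 pairs. The exact sign-flip test gave the same p of 0.125, the smallest that 4 pairs can give, so it could not pass.

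Class 5 semaphorins carry thrombospondin repeats beside the sema domain. SEMA5A, the ligand of plexin B3, held 252, 276, 291 and 318 CPM in functional and 170.0, 186, 102 and 109.8 CPM in developing replicates 1 to 4. Every functional library lay above every developing library, the male functional library was highest and developing replicates 3 and 4 were lowest. The log2 fold change was 1.003 ± 0.22, with an adjusted p of 0.0544 by TMM scaling and 0.0487 by RLE (relative log expression) scaling in edgeR's test. The adjusted p was 0.000935 in DESeq2's Wald test and 0.0401 in edgeR without developing replicate 2. Among female libraries the log2 fold change was 0.84 ± 0.24 (adjusted p = 0.186), and the male pair differed by 1.53. SEMA5A and its receptor PLXNB3 thus had opposite signs, each without overlap between groups. Each was called by DESeq2 and not by edgeR with TMM scaling on all 8 libraries without a covariate. SEMA5B averaged 4.42 ± 0.699 CPM in functional teeth against 4.15 ± 0.921 CPM in developing ones (log2 fold change 0.09 ± 0.23, adjusted p = 0.844).

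Among class 6 semaphorins, membrane-bound ligands of A-type plexins that can also act as receptors, SEMA6A fell in functional teeth. SEMA6A controls granule cell migration and axon sorting in the mouse brain through plexins A2 and A4. It held 8.92, 7.18, 12.6 and 9.73 CPM in functional and 23.2, 15.6, 26.0 and 18.2 CPM in developing replicates 1 to 4. The groups did not overlap, and the highest functional library, replicate 3, lay below the lowest developing library, replicate 2. The log2 fold change was -1.11 ± 0.22, with an adjusted p of 0.0427 and of 0.0446 with the replicate block. Female libraries alone gave -1.18 ± 0.28 (adjusted p = 0.149), and the male pair differed by -0.89. The call held without developing replicate 2 (0.0359) and was lost without any other library, with adjusted p-values from 0.0748 (developing replicate 1) to 0.126 (developing replicate 3).

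The other class 6 ligands did not pass. SEMA6B had low counts, 25, 29, 36 and 44 in functional and 27, 24, 13 and 8 in developing replicates 1 to 4, which came to 1.41, 1.18, 1.86 and 1.91 and 1.11, 1.11, 0.674 and 0.308 CPM. Its groups did not overlap, by a narrow margin between functional replicate 2 and developing replicates 1 and 2 (log2 fold change 0.99 ± 0.42, adjusted p = 0.216). SEMA6D, the ligand of plexin A1 in mouse osteoclasts and heart, held 69.5, 39.3, 36.6 and 56.5 CPM in functional and 27.3, 26.1, 80.4 and 63.7 CPM in developing replicates 1 to 4. Developing replicates 1 and 2 were the lowest and developing replicate 3 the highest of all 8, the group means were close and the 95% interval of the log2 fold change was wide, from -0.90 to 0.96. SEMA6C averaged 19.1 ± 6.74 CPM in functional teeth against 22.3 ± 8.46 CPM in developing ones (adjusted p = 0.727). PLXNC1, the receptor of SEMA7A, held 2.77, 1.38, 2.94 and 4.39 CPM in functional and 9.22, 1.98, 3.32 and 3.69 CPM in developing replicates 1 to 4. Developing replicate 1 stood above the rest, the other 7 libraries overlapped, and the log2 fold change of -0.67 ± 0.52 did not pass (adjusted p = 0.483). Without developing replicate 1 it was -0.043 ± 0.41.

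Of 57 listed partners and effectors of the pathway, 53 were in the table and 49 were tested. None passed in edgeR. Without adjustment 10 were higher (20.4%) and 5 lower (10.2%, p under 0.05), beside 9.53% and 12.8% of all genes. DESeq2 called FLT1, CHL1, TYROBP and DPYSL2 higher (8.16%) and ENAH, ITGA1 and NRCAM lower (6.12%), beside 4.65% and 6.19% of all genes. The 4 with the smallest p in edgeR were ITGA1, DPYSL2, CHL1 and ENAH. ITGA1, an integrin subunit that pairs with the integrin beta 1 chain to which SEMA7A binds, differed by -0.93 ± 0.20 on the log2 scale (adjusted p = 0.0544), from 11.4 ± 2.35 CPM in developing to 5.997 ± 1.11 CPM in functional teeth. DPYSL2, which encodes the collapsin response mediator that carries the SEMA3A signal to microtubules, averaged 189 ± 35.7 CPM in functional teeth against 103 ± 19.5 CPM in developing ones (0.87 ± 0.20, adjusted p = 0.0613). CHL1, an adhesion molecule that joins neuropilin 1 in the SEMA3A receptor of mouse neurons, averaged 9.54 ± 3.40 and 2.35 ± 1.72 CPM in that order (2.02 ± 0.52, adjusted p = 0.0776). ENAH, an actin regulator, averaged 67.4 ± 8.59 and 96.7 ± 6.18 CPM (-0.52 ± 0.14, adjusted p = 0.0833). The groups did not overlap in any of these 4, which were picked by their p. Of all 49 tested partners 7 were without overlap, beside 15% of all genes. The VEGF ligands with HGF, the ligand of MET, and the convertases that cut class 3 semaphorins had 6 and 4 tested members, with none called by edgeR or DESeq2 and none at an unadjusted p under 0.05. TREM2, HAVCR2, GIPC1 and PAK1 were not analysed here.

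Male and female libraries were compared in a model with tissue. Sex, the number of teeth per sample and anything else particular to replicate 4 cannot be told apart there, since all go with that replicate. No member passed in edgeR or DESeq2. Of the 15491 genes edgeR called 4.68%, and DESeq2 called 965 higher and 765 lower in male libraries. At an unadjusted p under 0.05 there was 1 member, SEMA3B, beside 21% of all genes. SEMA3B had a log2 difference, male minus female, of -1.19 ± 0.50 (adjusted p = 0.231). The interaction of tissue and sex, whose spread comes from the female libraries, was called in no member, with 1 at an unadjusted p under 0.05, SEMA6B (2.001, adjusted p = 0.937), beside 3.32% of all genes, and no gene passed after adjustment.

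Resorbing cells and macrophages, which carry plexins and semaphorins in mouse, also had more marker RNA in functional teeth. Over 9 osteoclast or odontoclast markers the sum was 395, 509, 695 and 1876 CPM in functional and 330.1, 146, 222 and 146 CPM in developing replicates 1 to 4, and over 8 macrophage markers it was 147, 106, 111 and 348 and 54.8, 45.4, 47.0 and 69.9 CPM. None of the resorbing cell markers was called, 2 macrophage markers (VSIG4 and CD68) were called higher, and the male functional library stood far above the others in both lists. The part of these cells in the values of the semaphorin family was not tested. The male functional library also held the highest level of all 8 for SEMA4A, SEMA4B, SEMA4F, SEMA5A, SEMA6B and NRP2. Other members went the other way. It held the lowest functional level for SEMA3B (138 CPM), SEMA4C (104 CPM), SEMA4D (77.7 CPM), SEMA5B (3.69 CPM) and PLXNB2 (75.9 CPM). The share of all genes that were highest in this library was not computed. Of 8 Schwann cell markers 3 had enough counts to be tested. SOX10 had at most 8 counts in any library, and FOXD3 and CDH19 had 0 counts in at least 1 library each.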

How the data were processed

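RNA of 4 functional and 4 developing tooth samples was sequenced as paired ends of 59 bases from stranded mRNA libraries, per the labels' protocols. The authors deposited estimated counts per gene, made with kallisto per the submitters' processing notes and not normalized. No version, strand setting, annotation, genome build or filter is stated in what was used here. Values that were not whole made up 34.2% and were rounded. Kallisto splits reads between similar transcripts, and 5 members (NRP1, NRP2, PLXNA1, PLXNB2 and SEMA3C) had values over 0.01 from a whole number, so their counts share reads with other features. Names and gene order, and nothing else, were taken from the RefSeq genes of assembly MPM_Emac_v1.0: 22407 of 22488 matched, and the other 81 (at most 1.41% of a library) were left out. Transcript lengths were not used here, so levels are not compared between genes.

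The filterByExpr function of edgeR 4.0.16 (R 4.3.3) kept 15491 genes. Functional was compared with developing by the quasi-likelihood test without a covariate, after TMM scaling, with Benjamini-Hochberg adjustment over all genes and a threshold of 0.05. Standard errors come from dividing a log2 fold change by the root of its F statistic, and 95% intervals use the test's degrees of freedom. CPM are on TMM-scaled sizes of the tested genes, as mean ± SD over 4 libraries. Ratios used counts plus 2, with an exact permutation test and, added after seeing the data, sign flips within pairs. Alternatives were edgeR's RLE scaling, the Wald test of DESeq2 1.42.0, TMM without COL1A1 and COL1A2, and no filter. Others were a replicate block, a sex covariate, female libraries alone and each library left out. Libraries of the 2 groups share replicate numbers. Between libraries of the same number, deviations from group means had correlations of 0.23, 0.16, 0.31 and 0.68, all over 0.1. Differently numbered libraries reached 0.41, which only replicate 4 exceeded. The numbers were therefore taken as pairs only in the replicate block and the sign flips, and the main test has no block. On counts simulated for functional against developing teeth over 15331 genes, the share recovered was 11 of 50 genes at 2-fold, 44 of 50 at 4-fold, 46 of 50 at 8-fold and 50 of 50 at 16-fold, with 6 unchanged genes called. The changed genes were drawn only from those above a minimum mean CPM, which SEMA4G, SEMA5B, SEMA6B and PLXNC1 did not reach.

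The members, the partner list and the marker lists were chosen with earlier results of these data known. Every member without overlap between groups, or with an unadjusted p under 0.05, is given in each library, as are some others that the account of receptors turns on. From the partner list the 4 genes with the smallest p are named. SEMA3D and SEMA7A are not reported here. Protein and promoter sequences were not used.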

Additional observations from a re-analysis of the deposited data

Results flagged for a closer look

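Each tested member was examined within each group of 4 libraries for a single value set apart from the other 3 (its gap to the nearest value, as a share of the whole range, above the critical value of Dixon's test). Of 56 such groups 3 stood out, and chance alone flags about 1 in 20. SEMA4D was low in developing replicate 1, at 75.6 CPM where the other 3 held between 96.6 and 100.2 CPM. NRP2 was high in functional replicate 4, the male library, at 404 CPM against 332 to 341 CPM. PLXNA3 was high in functional replicate 2, at 134 CPM against 89.7 to 94.7 CPM.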

How the results depend on the processing

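The counts of called members were small and moved with the processing. From 1 higher and 2 lower, they became 2 and 2 with RLE scaling, 0 and 1 without a filter on low counts and 3 and 4 in DESeq2's Wald test. They were 1 and 1 with the replicate block, 1 and 3 with a sex covariate, and 0 and 0 in the female libraries alone. Leaving out 1 library gave between 0 and 2 members higher and between 0 and 3 lower. Over all genes, from 124 higher and 312 lower, the counts were 721 and 959 in DESeq2, 69 and 151 with the replicate block, 246 and 425 with the sex covariate, 1 and 2 in the female libraries, and between 2 and 184 higher and between 5 and 457 lower with 1 library left out. Taking out COL1A1 and COL1A2 left the member counts at 1 and 2. SEMA6A was called in the fits with RLE scaling, without a filter, in DESeq2, with the block and with the covariate. SEMA3E was called in these except the fit without a filter (edgeR adjusted p = 0.0537). SEMA3F was called in these except the fits without a filter (edgeR adjusted p = 0.0531) and with the block (0.0763). The block changed the call of SEMA3F alone among members.

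Direction was the same in all 8 fits with 1 library left out for 23 of 28 members. The other 5 had small log2 fold changes, which ranged from -0.21 to 0.060 for PLXNB2, from -0.16 to 0.026 for SEMA4D (0.043 in the female libraries), from -0.024 to 0.14 for SEMA4F, from -0.47 to 0.016 for SEMA6C and from -0.17 to 0.39 for SEMA6D. With 1 library left out, the difference in log2 ratio ranged from 0.46 to 0.75 for SEMA4D to PLXNB1, from 0.79 to 1.45 for SEMA3E to PLXND1, and for NRP2 to NRP1 from 0.24 (without functional replicate 2) to 0.61 (without developing replicate 2). The exact paired sign-flip test of the ratios, added after seeing the data, gave p = 0.25 for NRP2 to NRP1, positive in 3 of 4 pairs. The cause of these shifts was not tested. No scaling moved the median log2 fold change of all genes by over 0.1. With 4 libraries a group, 11 of 50 simulated 2-fold changes were recovered, and smaller changes were not simulated.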

Other observations

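Summed over a class, whose members differ in transcript length, the class 3 ligands held 629, 774, 584 and 555 CPM in functional and 462, 496, 258 and 212 CPM in developing replicates 1 to 4, without overlap, and the B-type plexins held 187, 148, 152 and 154 and 232, 204, 275 and 282 CPM, also without overlap and in the other direction. The class 4 ligands held 431, 334, 342 and 384 and 282, 363, 313 and 345 CPM and overlapped. Class 5 ligands, neuropilins and A-type plexins were also higher without overlap. Their lowest functional sums were 256, 363 and 170 CPM against highest developing sums of 189, 359 and 165 CPM. The class 6 ligands, PLXNC1 and PLXND1 overlapped. These sums are descriptions without a test, and each is led by its most abundant members.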
